A study of Macaca mulatta with 21 samples.

Results

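The collagen genes of the rhesus macaque were examined in 6 pluripotent cell lines and in skin fibroblasts. They are all genes whose symbol on the array has the collagen form, such as COL1A1 or COL4A6. This gave 35 of the 14133 genes that had a probe set carrying their symbol alone, on 60 probe sets. Each gene was read from its brightest probe set over all 21 arrays. Of the 35 genes, 29 reached a log2 intensity of 5 on at least 3 arrays and were tested together with all 11143 genes that did so. The other 6, COL4A3, COL4A4, COL20A1, COL21A1, COL24A1 and COL28A1, were too dim to test. A further 9 collagen genes of the rhesus assembly, COL4A1, COL4A2, COL5A1, COL6A5, COL6A6, COL8A1, COL17A1, COL22A1 and COL23A1, were not analysed here.

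Collagens are secreted proteins whose chains wind around each other into a rope-like helix. The fibrillar types, led by type I, form the load-bearing fibres of skin, bone and cartilage, and the fibril-associated types coat them. Type IV forms the sheet-like network of basement membranes, which lie under epithelia, and type VI forms beaded filaments around cells. Skin fibroblasts are known as makers of types I, III and VI. Undifferentiated pluripotent cells grow as tight, epithelium-like colonies.

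Each of the 7 lines was measured on 3 arrays, A, B and C, which the labels call biological replicates. The control line ORMES23, which is male, was derived from a blastocyst produced by fertilization in vitro. Somatic nuclei transferred into eggs gave the cloned blastocysts behind the embryonic stem lines CRES-1, a male line, and CRES-3, a female line. Retroviruses carrying OCT4, SOX2, KLF4 and cMYC turned skin fibroblasts into the induced lines: those for RiPS1 were fetal and male, those for RiPS2 came from a female of 10 years, and those for RiPS3 from a female of 8 years. The skin fibroblasts came from a biopsy of an adult female aged 8 years. Each line is 1 derivation, so a difference between lines speaks for those lines alone. All lines, the fibroblasts included, grew on mouse embryonic feeder cells. Media and harvest differed between the kinds of cell: pluripotent colonies of undifferentiated shape were picked by hand, and fibroblasts were trypsinized. Medium, harvest and cell type therefore cannot be told apart in any comparison with the fibroblasts, and the part of RNA from the mouse feeder cells was not tested.

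The labels were checked against marker genes. POU5F1 (OCT4) averaged log2 4.14 in the fibroblasts and 11.94 to 12.53 in the pluripotent lines, and it passed the filter through the latter only. Of 8 pluripotency markers tested, 6 were called higher in the pluripotent lines, where 17.7% of all genes tested were. SOX2, LIN28B and DPPA4, like POU5F1, reached log2 5 on no fibroblast array, and DNMT3B and SALL4 did so on 1. All 6 therefore passed the filter through the pluripotent lines only. A difference was built into their selection, and nothing is read from the count. NANOG was called lower (-1.13), from a probe set at 9.96 in the fibroblasts and 8.18 to 9.22 in the pluripotent lines. That probe set may not measure NANOG, which was not checked, so nothing is read from its values. ZFP42 was not called (0.81). Among 14 measured fibroblast markers, 13 passed the filter, and 11 of these were lower in the pluripotent lines and none higher. The mean level of the list was 9.99 to 10.32 on the fibroblast arrays and 6.42 to 7.59 on the pluripotent arrays. FAP, a defining surface protease of fibroblasts, averaged 9.21 in the fibroblasts and 3.56 to 3.94 in the pluripotent lines. FAP and PRRX1, another of the 11, read under log2 5 on all pluripotent arrays, so they passed the filter through the fibroblasts only. LUM, also of the 11, reached log2 5 on 2 pluripotent arrays and likewise needed the fibroblasts to pass. Array medians lay between log2 4.98 and 5.14. Levels of different genes come from different probes and are not compared with each other.

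Against the fibroblasts, the pluripotent lines had lower levels of type I, III, VI and VII collagen genes and of COL12A1 and COL16A1, and higher levels of COL4A5, COL4A6, COL8A2, COL18A1 and the 3 genes of type IX. The comparison was the mean of the 6 pluripotent lines minus the fibroblast mean, tested with limma. A gene was called at a Benjamini-Hochberg adjusted p under 0.05, over all genes tested, and a change of at least 2-fold. Of the 29 tested collagen genes 7 were called higher and 9 lower, and 13 were not called. Over all genes tested, 17.7% were called higher and 14% lower. The median log2 difference was -0.08 over the collagen genes and 0.03 over all genes. Among the 16 called, COL6A3 and COL7A1 had pluripotent arrays that overlapped the fibroblast arrays, and the others had no overlap. How often this held over all called genes was not counted, so nothing is read from it. Fewer cells that make a transcript and less of it per cell cannot be told apart in RNA from whole cultures.

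**Figure D1:**
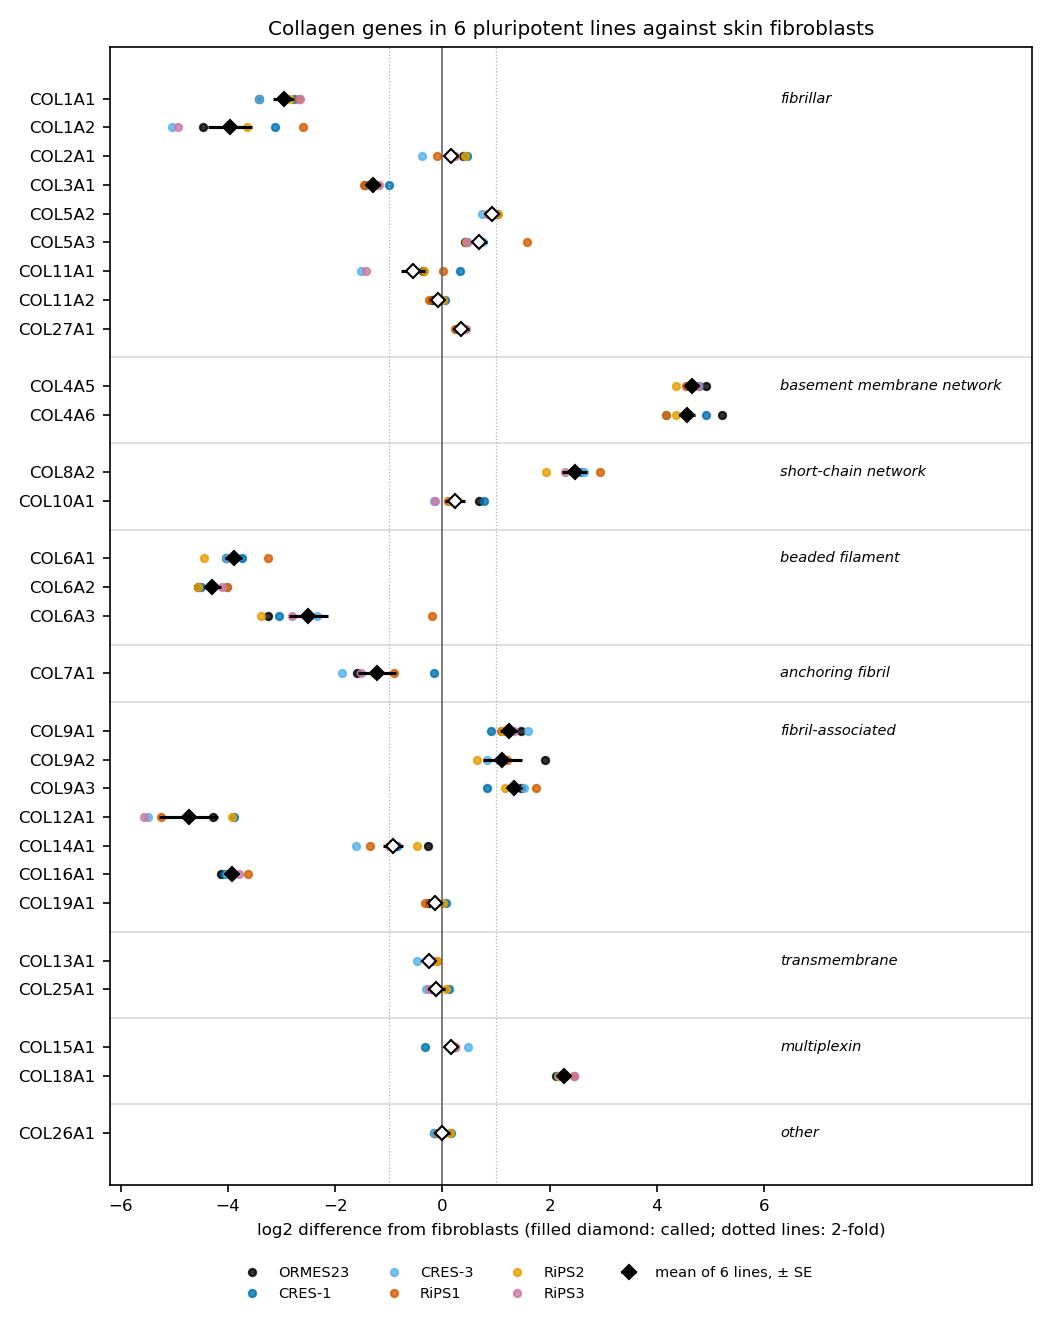
Difference from the fibroblasts for the 29 tested collagen genes, by structural class. The x axis is the log2 difference; coloured points are the 6 lines, diamonds the mean of the lines with the standard error, filled where the gene was called, and dotted lines mark 2-fold. COL12A1 (-4.73) and COL6A2 (-4.29) lie farthest to the left, COL4A5 (4.65) and COL4A6 (4.57) farthest to the right, and the COL6A3 point of RiPS1 (-0.19) lies apart from the other lines.

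The chains of type I collagen, the most abundant protein of skin and bone, were among the genes that fell. COL1A1 read 12.6, 12.91 and 13.0 on fibroblast arrays A, B and C, and the pluripotent arrays ran from 8.75 to 10.53 with a median of 9.89. The groups did not overlap, and COL1A1 was 7.78-fold lower in the pluripotent lines (log2 difference -2.96, SE 0.20, adjusted p = 3.01e-10 in limma). It was called lower in each of the 6 lines, by -2.65 to -3.43. COL1A2, which encodes the partner chain of COL1A1, read 14.08, 14.11 and 14.13 in the fibroblasts and 8.17 to 11.6 on the pluripotent arrays, with a median of 9.95. It was 15.7-fold lower (-3.97, SE 0.41, adjusted p = 1.16e-07), again in every line. Its size differed more between lines than that of COL1A1, from -2.60 in RiPS1 to -5.05 in CRES-3.

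COL3A1 encodes type III collagen, which forms fine fibres together with type I in skin. It read 7.42, 8.15 and 8.0 in the fibroblasts and 6.25 to 7.08 on the pluripotent arrays. It was 2.44-fold lower (-1.29, SE 0.13, adjusted p = 5.34e-08 in limma). The call held in 5 lines, while in CRES-1 the difference of -0.99 (SE 0.17) fell short of 2-fold. The fibrillar genes of cartilage, COL2A1, COL11A1 and COL11A2, were not called: their differences were 0.17 (95% interval -0.10 to 0.45), -0.55 (-1.03 to -0.07) and -0.08 (-0.29 to 0.13). COL27A1, another fibrillar gene, differed by 0.34 (0.02 to 0.66). COL24A1 stayed under log2 5 on all arrays. Of the 10 fibrillar genes measured, 9 were tested, 3 fell and none rose.

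Type V collagen is a minor fibrillar type that sits inside type I fibrils and sets their thickness. COL5A3 read 7.59, 6.98 and 6.93 in the fibroblasts and 7.36 to 8.94 on the pluripotent arrays, so the groups overlapped; the difference was 0.69 (SE 0.14), under 2-fold. The brightest probe set of COL5A2 read 11.74, 11.38 and 11.37 in the fibroblasts and 12.11 to 12.6 on the pluripotent arrays. This was a difference of 0.92 (SE 0.10), also under 2-fold, although no arrays overlapped. Other probe sets of COL5A2 gave the opposite direction, as described with the probe sets.

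All 3 genes of type VI collagen that were measured fell. COL6A1 read 12.99, 12.27 and 12.32 in the fibroblasts and 7.87 to 9.49 on the pluripotent arrays, a 14.8-fold difference (-3.89, SE 0.16, adjusted p = 3.02e-13 in limma). COL6A2 read 11.65, 10.7 and 11.1 in the fibroblasts and 6.3 to 7.45 on the pluripotent arrays, a 19.6-fold difference (-4.29, SE 0.16, adjusted p = 1.19e-13). These neighbouring genes of chromosome 3 were lower in each of the 6 lines, without overlap of arrays. COL6A3, the third chain, on chromosome 12, read 12.04, 9.67 and 9.79 in the fibroblasts, with array A far above the others. Its pluripotent arrays ran from 6.51 to 10.81 and overlapped the fibroblasts through RiPS1. The difference was -2.50 (SE 0.37, adjusted p = 9.84e-06), and -1.73 without fibroblast array A, still called.

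COL7A1 encodes the anchoring fibrils that fix epidermis to dermis. It read 9.36, 8.82 and 8.53 in the fibroblasts, and the pluripotent arrays ran from 6.48 to 8.98, so the groups overlapped. It was 2.33-fold lower (-1.22, SE 0.36, adjusted p = 0.00564 in limma); without fibroblast array A the difference was -0.99 and the call was lost. The call held in 4 lines. In CRES-1, whose arrays read 8.98, 8.71 and 8.55, the difference was -0.16 with a 95% interval of -1.15 to 0.83. In RiPS2, at 8.88, 6.8 and 7.22, it was -1.27, and -1.89 without array A; the call was lost without RiPS2 array B (-0.86), RiPS2 array C (-1.06) or fibroblast array A (-1.04).

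COL12A1 and COL16A1 encode fibril-associated collagens, which bridge fibrils and other matrix proteins. COL12A1 read 10.34, 12.07 and 11.65 in the fibroblasts. The pluripotent arrays ran from 5.25 to 8.18 and spread widely within lines: ORMES23 read 5.25, 7.86 and 8.14, RiPS1 5.54, 5.36 and 7.4, and RiPS2 8.09, 6.02 and 8.18. No array reached the fibroblasts, and COL12A1 was 26.6-fold lower (-4.73, SE 0.55, adjusted p = 4.5e-07 in limma). Within a line the size rested on single arrays: in ORMES23 it was -4.27, and -3.35 without array A; in RiPS1 it was -5.25, and -5.90 without array C; in RiPS2 it was -3.92, and -3.22 without array B. COL16A1 was tight by contrast, at 9.83, 10.38 and 10.23 in the fibroblasts and 5.92 to 6.74 on the pluripotent arrays. It was 15.2-fold lower (-3.92, SE 0.10, adjusted p = 6.51e-16). Both genes were lower in each of the 6 lines.

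The mean level of the fibroblast markers was also lower in every pluripotent line. That includes RiPS1, where COL6A3 was not called (-0.19), and CRES-1, where COL7A1 was not called (-0.16). Of the markers tested, DCN (0.13) and FBLN1 (-0.34) were not called. The part of fibroblast markers in the differences was not tested.

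**Figure D2:**
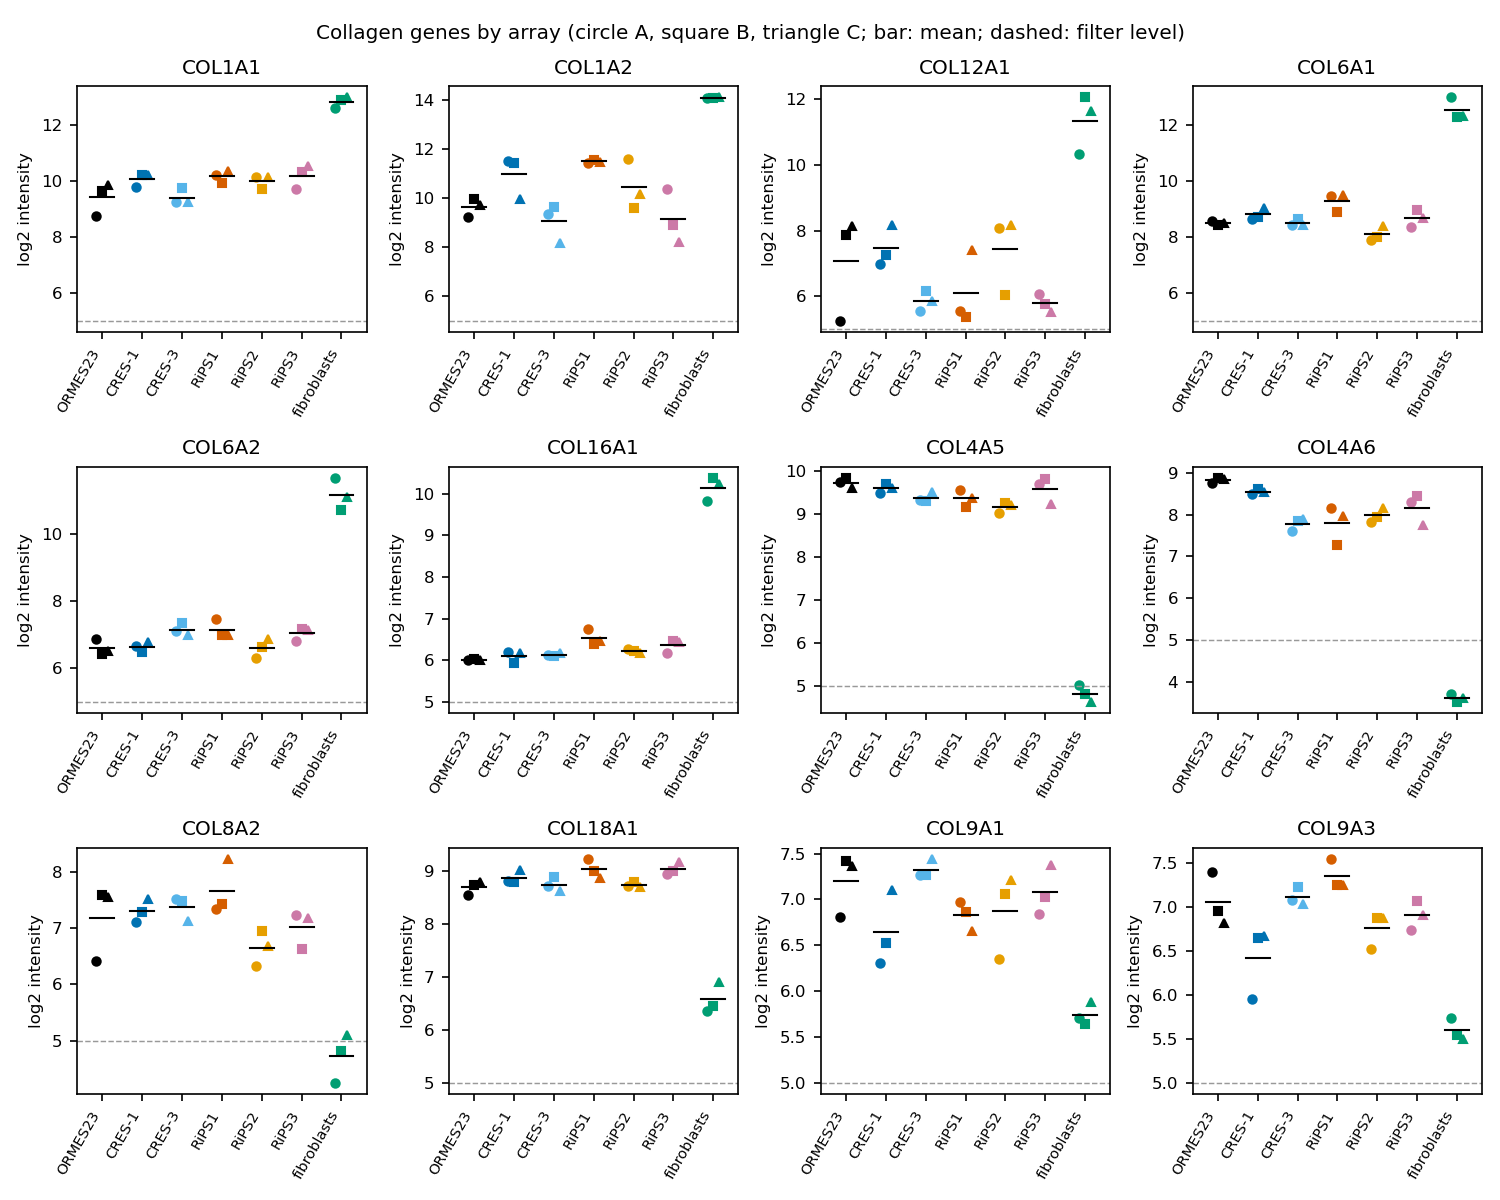
Log2 intensity of 12 collagen genes on every array, by line; circles, squares and triangles are arrays A, B and C, bars the mean of a line and the dashed line the filter level of log2 5. The first 6 panels show genes lower in the pluripotent lines and the last 6 genes that were higher; COL12A1 spreads from 5.25 to 8.14 within ORMES23, while COL16A1 stays between 6.0 and 6.03 there.

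Type IV collagen is the network of basement membranes, and the X-linked genes COL4A5 and COL4A6 encode chains that assemble with each other. They lie next to each other with 1 coding gene between them in the annotation. COL4A5 read 5.02, 4.81 and 4.64 in the fibroblasts, at the filter level, and 9.03 to 9.84 on the pluripotent arrays with a median of 9.51. Counted from log2 5, since the fibroblasts averaged below that level, it was at least 22.3-fold higher (log2 difference 4.65, SE 0.11, adjusted p = 3.26e-16 in limma). COL4A6 read 3.71, 3.52 and 3.61 in the fibroblasts and 7.28 to 8.87 on the pluripotent arrays, at least 9.06-fold higher (4.57, SE 0.15, adjusted p = 1.17e-14). COL4A6 passed the filter through its 18 pluripotent arrays only. COL4A5, with 1 fibroblast array at log2 5, also needed its pluripotent arrays to pass. A difference was thus built into the selection of both. Both genes were higher in each of the 6 lines, by 4.35 to 4.91 for COL4A5 and by 4.17 to 5.21 for COL4A6. The autosomal genes COL4A3 and COL4A4, neighbours on chromosome 12, stayed under log2 5 on all arrays, at 3.34 to 4.21 and 2.67 to 3.74 on the pluripotent arrays.

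COL8A2, a short-chain collagen known from the basement membrane of the cornea, read 4.26, 4.82 and 5.1 in the fibroblasts and 6.32 to 8.22 on the pluripotent arrays. It was at least 4.59-fold higher (2.47, SE 0.23, adjusted p = 3.1e-08 in limma). With 1 fibroblast array at log2 5, COL8A2 passed the filter through the pluripotent lines only, so a difference was built into its selection. COL18A1, a basement membrane collagen whose end fragment is endostatin, read 6.36, 6.45 and 6.91 in the fibroblasts and 8.55 to 9.22 on the pluripotent arrays. It was 4.84-fold higher (2.27, SE 0.10, adjusted p = 1.61e-12), in each of the 6 lines, as was COL8A2. COL18A1 varied little among the pluripotent lines, from 2.12 to 2.46 above the fibroblasts. COL10A1, the other short-chain gene, reached log2 5 on 6 pluripotent arrays and no fibroblast array. It differed by 0.24 (95% interval -0.16 to 0.65) and was not called.

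The chains of type IX collagen, a fibril-associated type best known from cartilage, rose together but modestly. COL9A1 read 5.71, 5.64 and 5.88 in the fibroblasts and 6.31 to 7.44 on the pluripotent arrays, 2.38-fold higher (1.25, SE 0.17, adjusted p = 4.43e-06 in limma). COL9A3 read 5.74, 5.54 and 5.5 in the fibroblasts and 5.95 to 7.54 on the pluripotent arrays, 2.53-fold higher (1.34, SE 0.14, adjusted p = 1.21e-07). Each was called in 5 lines, CRES-1 being the exception at 0.91 and 0.83. COL9A2 read 6.56, 6.63 and 6.3 in the fibroblasts and 6.91 to 9.85 on the pluripotent arrays, 2.17-fold higher (1.12, SE 0.37, adjusted p = 0.0124). This rested on few arrays: ORMES23 read 9.85, 7.94 and 7.43, and the call was lost without its array A (1.00) or without fibroblast array C (1.02, adjusted p = 0.0586). By line, COL9A2 was called in ORMES23 (1.91, and 1.19 without array A) and in RiPS1 (1.20, and 0.75 with adjusted p = 0.205 without array A); the RiPS1 call was also lost without any of the fibroblast arrays.

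Markers of other cell types were set beside type IX. ORMES23 array A, the highest for COL9A2, also had the highest mean of the endoderm markers, 9.02. The other pluripotent arrays had 6.61 to 8.13 and the fibroblast arrays 6.08 to 6.28. Of 9 endoderm markers tested, 4 were called higher in the pluripotent lines, where 17.7% of all genes were, and 5 were not called. Of the 4, SOX17 and FOXA2 reached log2 5 on no fibroblast array and CER1 on 1. These genes therefore passed the filter through the pluripotent lines only. Of 5 cartilage markers tested, none was called, and their mean level was 4.73 to 5.26 on the pluripotent and 4.70 to 5.02 on the fibroblast arrays, near the filter level. The part of either cell type in the type IX values was not tested.

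The remaining tested genes showed small differences at their brightest probe set. COL14A1, a fibril-associated collagen of skin and tendon, read 6.19, 6.18 and 6.49 in the fibroblasts and 4.43 to 6.19 on the pluripotent arrays, a difference of -0.92 (SE 0.18), under 2-fold. COL19A1, which lies beside COL9A1 on chromosome 4, differed by -0.13 (95% interval -0.39 to 0.13). The transmembrane collagens COL13A1 and COL25A1 differed by -0.24 and -0.11, and the basement membrane collagen COL15A1 by 0.16. COL26A1, which fits no large class, differed by -0.01 (-0.32 to 0.30). Of the untested genes, COL21A1 exceeded log2 5 on 1 array, fibroblast array A, where it read 5.96 against 4.44 and 3.69 on the other fibroblast arrays. COL20A1 and COL28A1 stayed below log2 5 on all arrays.

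The picture depended on which probe set of a gene was read. With each of the 47 collagen probe sets above the filter fitted as its own feature among 18361, 28 were called, 10 higher and 18 lower; 31.1% of all probe sets were called. Of the 14 genes with more than 1 probe set above the filter, 9 had probe sets at least log2 1 apart and 5 had probe sets that differed in sign: COL5A2, COL11A1, COL13A1, COL15A1 and COL18A1. At least 1 probe set was called lower for 12 genes and higher for 9. How many of all genes met that rule is not given here, so nothing is read from these counts. Which probe set reads the gene's main transcript is not given in the sources used here.

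COL5A2 was the clearest case. The probe set MmuSTS.94.1.S1_at, the brightest, gave 0.92 and a second probe set, with overlapping groups, gave 0.82, neither called. MmuSTS.3931.1.S1_at, at 11.62, 12.36 and 12.37 in the fibroblasts and 6.19 to 9.26 on the pluripotent arrays, gave -4.76 (SE 0.26, adjusted p = 1.77e-11 in limma). MmugDNA.2720.1.S1_at, at 12.15, 13.55 and 13.23 in the fibroblasts and 6.23 to 9.56 on the pluripotent arrays, gave -5.37 (SE 0.31, adjusted p = 2.78e-11). The former pair of probe sets stayed under 2-fold, and the latter pair had the largest falls of any collagen probe set. The direction of COL5A2 is therefore uncertain.

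COL15A1 behaved in a like way. Its brighter probe set, MmugDNA.8844.1.S1_at, gave 0.16. MmuSTS.1203.1.S1_at read 9.72, 9.71 and 9.55 in the fibroblasts and 4.00 to 5.94 on the pluripotent arrays, a difference of -4.74 (SE 0.17, adjusted p = 3.79e-14 in limma). For COL14A1, MmuSTS.3686.1.S1_at read 8.67, 8.78 and 8.78 in the fibroblasts and 3.12 to 5.75 on the pluripotent arrays (-4.57, SE 0.28, called lower), against -0.92 and -0.67 at its other tested probe sets. COL18A1 was called higher from MmugDNA.23773.1.S1_at (2.27), while MmugDNA.31662.1.S1_at gave -0.53. COL13A1 gave 1.10 from MmuSTS.1876.1.S1_at, called higher, and -0.24 from its brighter probe set. COL2A1, not called at its brightest probe set, was called higher at MmugDNA.24005.1.S1_at (1.15).

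Elsewhere the probe sets kept 1 direction but not 1 size. COL4A5 gave 4.65 from MmuSTS.3929.1.S1_at and 0.41 from MmugDNA.34799.1.S1_at, which stayed between 4.42 and 5.23 on all arrays, near the filter level. COL4A6 gave 4.57 and 1.44, both called higher. All 3 probe sets of COL6A1 were called lower (-3.89, -3.32 and -2.11), as were both of COL6A2 (-4.29 and -2.20), of COL1A2 (-3.97 and -3.80) and of COL7A1 (-1.24 and -1.22). For COL1A1, 1 of 2 probe sets passed the filter.

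**Figure D3:**
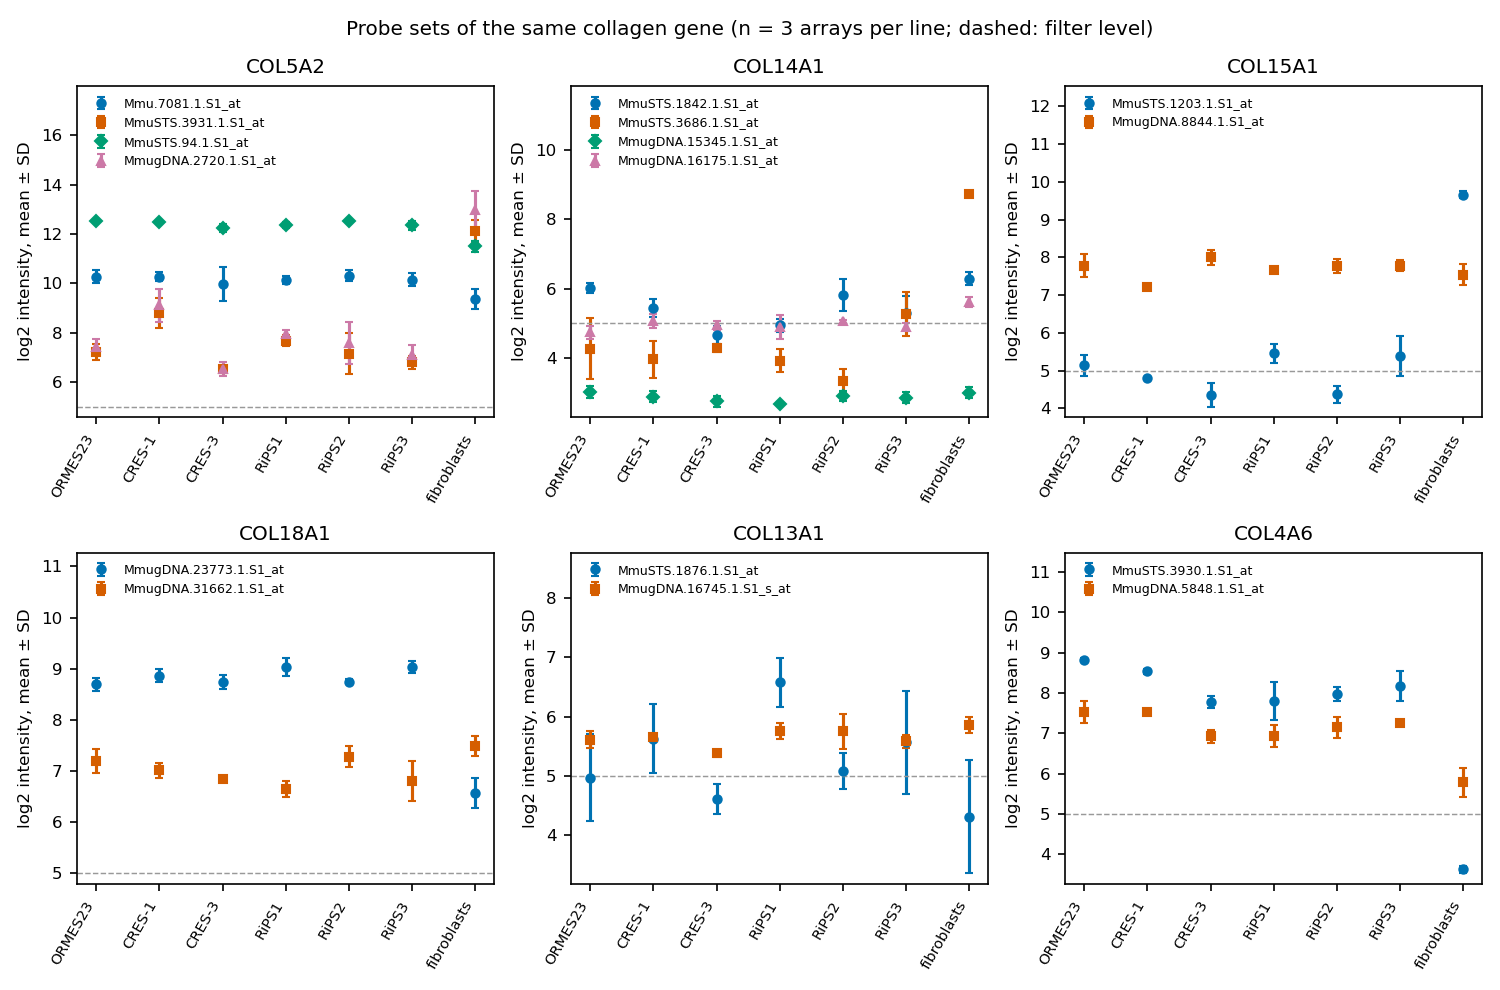
Mean log2 intensity with SD (n = 3 arrays per line) of every probe set of 6 collagen genes, by line; each colour and marker is a probe set and the dashed line is the filter level of log2 5. In COL5A2 a pair of probe sets falls from the fibroblasts to the pluripotent lines (-4.76 and -5.37) while the other pair is slightly higher (0.92 and 0.82), and COL15A1 shows the same split (-4.74 and 0.16).

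Line by line against the fibroblasts, the count of collagen genes called was 17 of 29 in ORMES23 (8 higher, 9 lower), where 32.6% of all genes were called. It was 11 in CRES-1 (4 higher, 7 lower; background 30.6%), 17 in CRES-3 (6 and 11; 33.3%), 16 in RiPS1 (8 and 8; 32.8%), 16 in RiPS2 (7 and 9; 31.8%) and 16 in RiPS3 (6 and 10; 32.5%). These comparisons share the fibroblast arrays and so are not independent of each other. COL1A1, COL1A2, COL6A1, COL6A2, COL12A1 and COL16A1 were lower in all 6 lines. COL4A5, COL4A6, COL8A2 and COL18A1 were higher in all 6. COL11A1 was called lower in CRES-3 (-1.52, SE 0.30) and RiPS3 (-1.42, SE 0.30), while its differences in the other lines lay between -0.36 and 0.33. With the mean of both probe sets COL11A1 gave -0.94 and -0.99 in these lines, under 2-fold. COL14A1 was called lower in CRES-3 (at least 2.45-fold) and in RiPS1 (at least 2.45-fold). COL5A3 was called higher in RiPS1 alone (1.58, SE 0.19). COL5A2 was called higher in ORMES23 (1.02) and RiPS2 (1.04) from its brightest probe set; the mean of its 4 probe sets reversed both. COL6A3 was called lower in all lines but RiPS1, from -2.34 in CRES-3 to -3.38 in RiPS2, and without fibroblast array A from -1.57 to -2.61. COL1A2 in RiPS3 was -4.94, and -5.55 without RiPS3 array A. COL2A1, COL10A1, COL11A2, COL13A1, COL15A1, COL19A1, COL25A1, COL26A1 and COL27A1 were called in no line.

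Among the 6 pluripotent lines, COL6A3, COL1A2 and COL11A1 had the widest ranges of line means at the brightest probe set of each collagen gene. A moderated F test in limma, with a range of line means of at least log2 1, called COL1A2, COL4A6, COL5A3, COL6A1, COL6A3, COL11A1 and COL14A1, 7 of 29, where 7.52% of all genes were called. The median range of line means was 0.78 over the collagen genes and 0.44 over all genes tested.

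COL6A3 had the widest range of line means, 3.19 on the log2 scale (adjusted p = 0.00156 in the F test). The RiPS1 arrays read 10.81, 10.15 and 9.96. ORMES23 read 7.81, 7.36 and 6.59, CRES-1 7.27, 7.62 and 7.49, and RiPS2 6.51, 7.19 and 7.66. CRES-3 read 8.05, 8.5 and 7.92, and RiPS3 8.09, 7.84 and 7.17. RiPS1 stood above every array of the other pluripotent lines and lay between fibroblast array A (12.04) and the other fibroblast arrays (9.67 and 9.79). RiPS1 and the fibroblasts did not differ beyond their spread (-0.19, 95% interval -1.22 to 0.84). Below RiPS1 the lines followed in the order CRES-3, RiPS3, CRES-1, ORMES23 and RiPS2, and the arrays of each neighbouring pair in that order overlapped.

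COL5A3 was also highest in RiPS1, at 8.94, 8.75 and 8.54 against 7.36 to 8.05 on the other pluripotent arrays (range of line means 1.15, adjusted p = 0.00173 in the F test). COL6A1 was highest in RiPS1 too, at 9.44, 8.9 and 9.49, and lowest in RiPS2, at 7.87, 7.99 and 8.39 (range 1.19, adjusted p = 0.0104). The other COL6A1 probe sets had ranges of 0.65 and 0.46 and were not called. COL6A2 had a range of 0.54 and was not called. RiPS1 was not the highest pluripotent line for the fibroblast markers. Their mean was 7.02 to 7.24 on the RiPS1 arrays, 7.19 to 7.26 in ORMES23 and 7.29 to 7.59 in CRES-1. Of the 13 tested, 1 was called higher in RiPS1 than in ORMES23, where 2.40% of all genes were called. Nothing is read from that count. RiPS1 was the highest pluripotent line for the immune markers (5.59 to 5.62 against 5.19 to 5.54) and the endothelial markers (5.39 to 5.67 against 5.09 to 5.35). Of the 5 immune markers tested, LCP1 was called between CRES-1 and RiPS1, where 2.14% of all genes were called. Its difference was -2.69 (SE 0.58, adjusted p = 0.00821 in limma), with means of 8.47 and 11.15. PTPRC, the pan-leukocyte gene, and LYZ averaged under log2 5 in every line. Of the endothelial markers none was called in that comparison. The part of these cell types in the RiPS1 values was not tested.

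COL1A2 ranged over 2.45 between line means (adjusted p = 0.0131 in the F test). It was highest in RiPS1, at 11.45, 11.56 and 11.5, followed by CRES-1 at 11.54, 11.44 and 9.95 and RiPS2 at 11.6, 9.62 and 10.17. ORMES23 read 9.23, 9.95 and 9.74, RiPS3 10.37, 8.89 and 8.22, and CRES-3 9.36, 9.63 and 8.17. Arrays of neighbouring lines in that order overlapped, and single arrays stood apart within CRES-1, RiPS2 and RiPS3. COL1A1, which encodes the other chain of type I, had a range of 0.78 and was not called. COL7A1 (range 1.71) and COL12A1 (range 1.68) also missed the threshold, with wide spreads within lines.

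COL11A1 split the lines by level: CRES-1 read 9.9, 9.94 and 9.3, RiPS1 9.58, 9.33 and 9.27, RiPS2 9.52, 8.62 and 8.99 and ORMES23 8.81, 9.17 and 9.08. CRES-3 read 7.88, 8.22 and 7.49 and RiPS3 7.98, 8.16 and 7.74, below every array of the other lines (range 1.85, adjusted p = 0.00111 in the F test). Its second probe set, near the filter level, also passed this test (range 1.62, adjusted p = 0.0131), with CRES-1 highest. The dimmer pair of COL5A2 probe sets varied among the lines as well: MmuSTS.3931.1.S1_at had a range of 2.27 and MmugDNA.2720.1.S1_at of 2.58, again with CRES-1 highest (9.26, 9.05 and 8.09, and 9.56, 9.4 and 8.34).

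COL14A1 was highest in ORMES23, at 5.99, 6.17 and 5.91, and lowest in CRES-3, at 4.62, 4.43 and 4.94 (range 1.36, adjusted p = 0.00385 in the F test), all near the filter level. Its probe set MmuSTS.3686.1.S1_at also passed (range 1.92, adjusted p = 0.022) but ordered the lines otherwise, with RiPS3 highest at 4.54, 5.48 and 5.75. COL4A6 was highest in ORMES23, at 8.76, 8.87 and 8.84, and then in CRES-1, at 8.48, 8.61 and 8.53. RiPS3 read 8.31, 8.45 and 7.74, RiPS2 7.83, 7.94 and 8.16, RiPS1 8.15, 7.28 and 7.96, and CRES-3 7.61, 7.84 and 7.9 (range 1.04, adjusted p = 0.00352). The arrays of the last 4 lines overlapped, while every ORMES23 and CRES-1 array lay above them. COL4A5 kept a range of 0.56 and was not called.

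**Figure D4:**
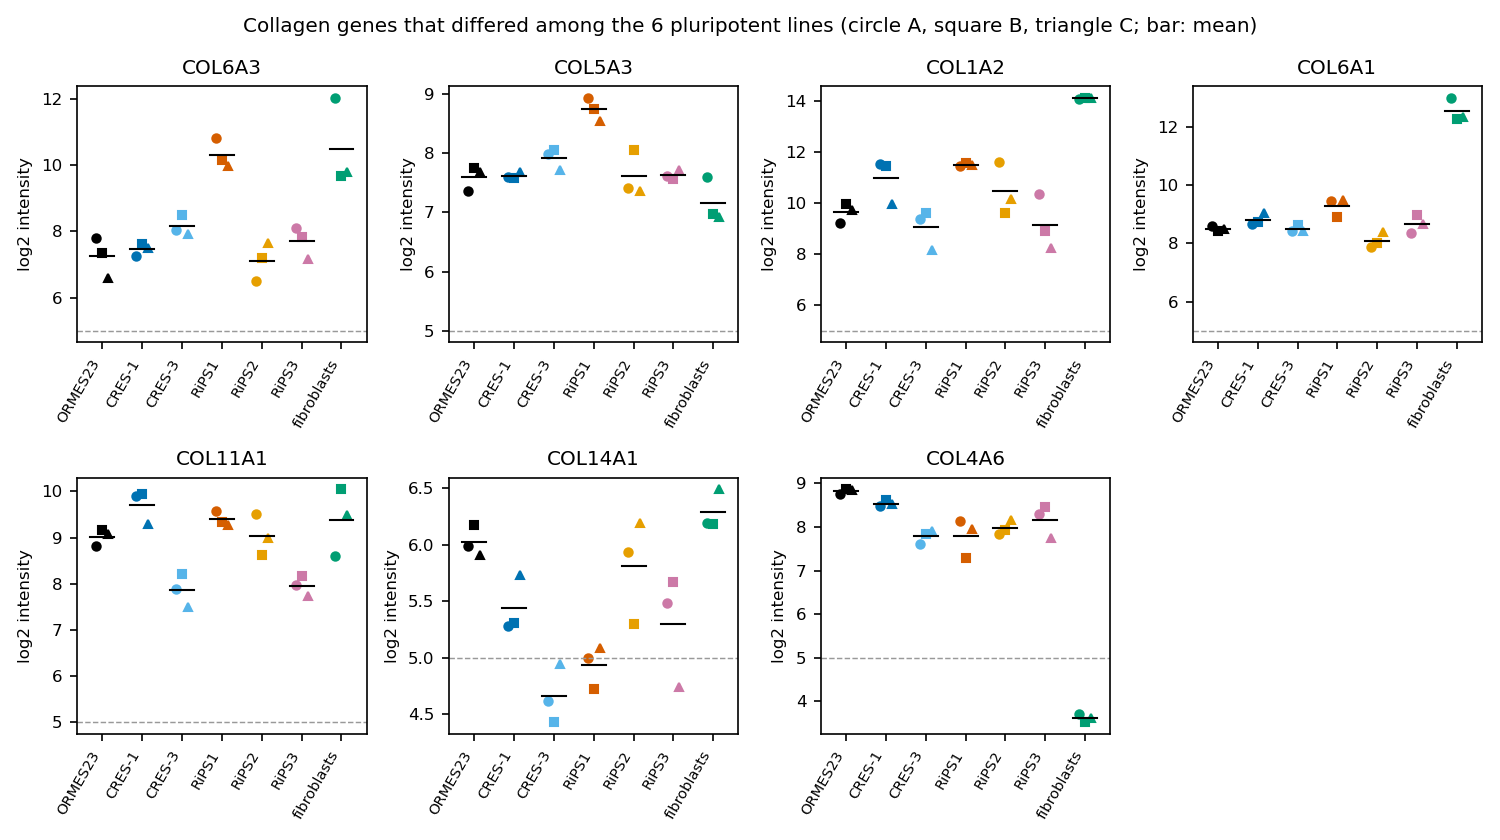
Log2 intensity on every array of the 7 collagen genes that differed among the pluripotent lines, with the fibroblasts at the right; circles, squares and triangles are arrays A, B and C, bars the mean of a line and the dashed line the filter level of log2 5. RiPS1 is the highest pluripotent line for COL6A3 (9.96 to 10.81) and COL5A3 (8.54 to 8.94), and CRES-3 and RiPS3 are the lowest for COL11A1.

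ORMES23, the line from a fertilized embryo, served as the control for the reprogrammed lines; these comparisons share its arrays. RiPS1 differed from it in 5 collagen genes, where 2.40% of all genes were called. COL6A3 was 8.31-fold higher in RiPS1 (3.05, SE 0.49, adjusted p = 0.000752 in limma), COL1A2 3.63-fold higher (1.86, SE 0.54, adjusted p = 0.042) and COL5A3 2.21-fold higher (1.15, SE 0.19, adjusted p = 0.000953). COL4A6 was 2.04-fold lower (-1.03, SE 0.19, adjusted p = 0.00282) and COL14A1 at least 2.03-fold lower (-1.09, SE 0.24, adjusted p = 0.00755). The COL1A2 call was lost when any of the 6 arrays was left out (adjusted p from 0.0792 to 0.114). Without RiPS1 array B 2 calls were left, since COL4A6 (-0.77) and COL14A1 (-0.98) then fell under 2-fold as well.

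CRES-3 differed from ORMES23 in 3 collagen genes, all lower, where 0.996% of all genes were called. They were COL14A1 (at least 2.03-fold; -1.36, SE 0.24, adjusted p = 0.0049 in limma), COL4A6 (2.06-fold; -1.04, SE 0.19, adjusted p = 0.00758) and COL11A1 (2.23-fold; -1.16, SE 0.30, adjusted p = 0.0476). Without CRES-3 array A 1 call was left: COL4A6 then gave -0.96 and COL11A1 an adjusted p of 0.151. The COL11A1 call was lost without 5 of the 6 arrays in turn. The other probe sets of COL4A6 (-0.61), COL11A1 (-0.16) and COL14A1 (0.04 and 0.19) were not called in this comparison. In RiPS1 against ORMES23 those of COL4A6 (-0.60) and COL14A1 (-0.35 and 0.15) were not called either.

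No collagen gene was called in the other lines against ORMES23. In limma CRES-1 had no called gene of any kind (0.00%), with 9 collagen genes and 1270 of all genes at an unadjusted p under 0.05. COL7A1 had the largest difference there (1.43, 95% interval 0.44 to 2.42, adjusted p = 0.282). In RiPS2, 0.458% of all genes were called. There 4 of 29 collagen genes and 1327 of 11143 genes had an unadjusted p under 0.05. COL4A6 had an adjusted p of 0.0422 with a difference of -0.84, under 2-fold. In RiPS3, 0.763% were called, and 7 of 29 collagen genes and 1627 of 11143 genes had an unadjusted p under 0.05. Nothing is read from these unadjusted counts. COL11A1 gave -1.06 in RiPS3 (95% interval -1.69 to -0.43, adjusted p = 0.0816). Leaving out ORMES23 array A or RiPS3 array A brought the RiPS3 count to 1.

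Cloned and induced lines were compared within each labelled sex. CRES-3 and RiPS3, the female pair, had no collagen gene called in limma, where 0.0359% of all genes were called. An unadjusted p under 0.05 was seen for 4 of 29 collagen genes and 881 of 11143 genes. The collagen differences with the smallest p in this pair were COL2A1 at -0.62 (95% interval -0.98 to -0.25, adjusted p = 0.255) and COL1A1 at -0.78 (-1.33 to -0.23, adjusted p = 0.378). The COL6A3 interval, -0.57 to 1.49, allowed differences over 2-fold. CRES-1 and RiPS1, the male pair, differed in COL6A3, 7.21-fold lower in CRES-1 (-2.85, SE 0.49, adjusted p = 0.00156), and COL5A3, 2.18-fold lower (-1.12, SE 0.19, adjusted p = 0.00136), where 2.14% of all genes were called.

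The difference between the pairs was itself tested, as the CRES-3 minus RiPS3 difference less the CRES-1 minus RiPS1 difference. It was called for COL2A1, COL4A6, COL5A3, COL6A3 and COL9A3, 5 of 29, where 2.89% of all genes were called. COL6A3 had the largest value, 3.31 (95% interval 1.85 to 4.76, adjusted p = 0.0108 in limma). Without CRES-1 array A 3 were left. Each pair is 1 line against 1 line, so sex, line and, for RiPS1, the fetal origin of its donor cells cannot be told apart.

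Genes that act on collagen were read from 7 lists, again as the mean of the pluripotent lines minus the fibroblasts in limma, against the same background of 17.7% higher and 14% lower. Of 13 genes for hydroxylation and glycosylation of collagen chains, all tested, 8 fell, 1 rose and 4 were not called (median -1.43). PPIB, a prolyl isomerase of the chains (-1.65, SE 0.08), PLOD3, a lysyl hydroxylase and glycosyltransferase (-1.74, SE 0.11), and CRTAP, which is part of the prolyl 3-hydroxylase complex (-1.43, SE 0.11), fell. The lysyl hydroxylase PLOD1 rose (1.79, SE 0.09). Of 11 folding and export genes, 7 fell, none rose and 4 were not called (median -1.45), among them CREB3L1, a transcription factor of collagen-secreting cells (-3.85, SE 0.13), and the isomerases FKBP14 (-1.82) and FKBP10 (-1.77).

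Of 15 measured genes for procollagen processing and cross-linking, 12 were tested, 7 fell, 1 rose and 4 were not called (median -1.05). LOX, which cross-links collagen, averaged 11.67 in the fibroblasts and 5.08 to 6.84 in the pluripotent lines (-5.62, SE 0.37). PCOLCE2 (-3.87) and PCOLCE (-2.47), enhancers of the protease that trims procollagen, fell too. The procollagen protease ADAMTS3 was at least 2.11-fold higher, from a fibroblast mean of 3.69, under the filter level. ADAMTS3, the only gene of this list that rose, reached log2 5 on no fibroblast array. It passed the filter through the pluripotent lines only, so a difference was built into its selection. Of 12 fibril regulators 10 were tested, 6 fell and none rose (median -1.93), and the smallest p-values belonged to 3 small proteoglycans. BGN fell by 3.08 (SE 0.12). ASPN (at least 19.7-fold lower) and FMOD (at least 11.4-fold lower) read under log2 5 on all pluripotent arrays, so they passed the filter through the fibroblasts only. LUM, another small proteoglycan, picked out after its values were seen, was at least 57.4-fold lower. LUM reached log2 5 on 2 pluripotent arrays, so it too passed the filter through the fibroblasts only. DCN, also a small proteoglycan of this list, was not called (0.13). Of the 12 measured regulators, 5 are also on the fibroblast marker list.

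Partners of collagen in the basement membrane were mixed: of 11 tested, 2 rose, 4 fell and 5 were not called (median -0.42). The laminin chain LAMA1 averaged 3.82 in the fibroblasts, under the filter level, and 7.14 to 8.34 in the pluripotent lines, at least 7.21-fold higher. LAMA1 reached log2 5 on no fibroblast array, so it too passed the filter through the pluripotent lines only. The proteoglycan AGRN rose by 2.53 (SE 0.17). The laminin and type IV linker NID1 (-3.58, SE 0.19) and the laminin chains LAMB2 (-1.45) and LAMC1 (-1.29) fell. All 5 collagen receptors tested fell (median -1.86), including DDR2 (at least 6.73-fold lower) and the integrin chains ITGA2 (at least 7.56-fold) and ITGA1 (at least 2.74-fold), whose mean over the pluripotent lines was under log2 5. Of 11 measured collagen-degrading proteases 9 were tested, 5 fell and none rose (median -1.43), with CTSK (-4.46), MMP14 (-1.62) and MMP3, which was at least 12.1-fold lower and averaged 2.98 to 4.04 in the pluripotent lines. DDR2 reached log2 5 on 2 pluripotent arrays and MMP3 on 1, so both passed the filter through the fibroblasts only. The medians of these lists include differences of genes under log2 5 in a group, which are no measured ratios.

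Between CRES-1 and RiPS1, the pair that differed in COL6A3 and COL5A3, 2 of the 71 tested genes of these lists were called, both lower in CRES-1. That is 2.82%, near the 2.14% of all genes, so nothing is read from the count. NID1 averaged 8.14 in RiPS1 and 6.57 to 6.94 in the other pluripotent lines (CRES-1 minus RiPS1 -1.53, SE 0.24, adjusted p = 0.000907 in limma). ADAMTS3 averaged 6.93 in RiPS1 and 5.55 to 6.20 in the others (-1.27, SE 0.26, adjusted p = 0.00517). No gene for hydroxylation, folding, fibril regulation, degradation or reception of collagen was called between them.

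**Figure D5:**
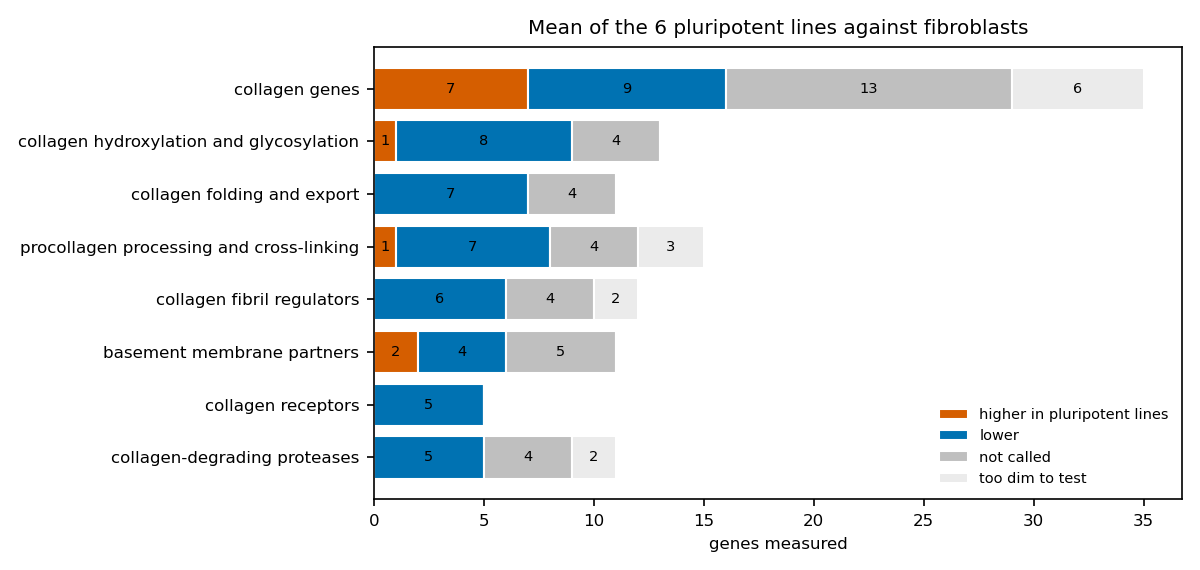
Number of measured genes called higher, called lower, not called or too dim to test in the mean of the 6 pluripotent lines against the fibroblasts, for the collagen genes and 7 lists of genes that act on collagen. The collagen genes split into 7 higher and 9 lower, while the receptors are lower in 5 of 5 and the folding and export genes in 7 of 11.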

How the data were processed

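Messenger RNA was measured on Affymetrix rhesus arrays, 3 for each of 7 lines. Per the submitters' processing notes the authors used RMA, robust multi-array averaging, and deposited log2 values, 1 per probe set and array. The version of RMA is not given in the sources used here. They ran from 2.09 to 14.7, and the highest correlation between arrays was 0.996. Of 52865 probe sets, 24969 carried 1 symbol, 361 several and 27535 none; the last 2 kinds were left out. COL6A1 joins probe sets with 2 Entrez identifiers under 1 symbol. Depth has no meaning for arrays; their number limits the precision.

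All 7 lines entered 1 linear model (limma 3.58.1, R 4.3.3), with 14 residual degrees of freedom, eBayes moderation and two-sided tests. A fold is a lower bound from log2 5 where the dimmer group averaged less. The fit was tested on simulated data. The p-values measure the spread between arrays of a line.

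The members and lists were chosen with earlier results of these data known. Any member could be named; lists name up to 3 genes per direction with the smallest p. Other marker lists were examined against the fibroblasts, where 17.7% of all genes were higher and 14.0% lower. They were mesoderm (4 of 8 tested higher), trophoblast (1 higher and 2 lower of 7) and endothelial (1 and 1 of 5). Smooth muscle (0 of 4 called), keratinocyte (0 of 2 called) and immune markers (2 of 5 higher) were the rest. Among the genes higher in these lists, EOMES, GSC, GATA3, TEK, CD68 and LCP1 reached log2 5 on fewer than 3 fibroblast arrays. They passed the filter through the pluripotent lines only. Chromosomes and neighbours came from RefSeq tables of the telomere-to-telomere assembly MMU8v2.0; sequences were not used here. Alternatives were the replicate letter as a block, another filter or none, no fold limit, the mean of all probe sets, centring, a variance trend, only the arrays compared, each array left out and, added after seeing the data, each probe set fitted by itself.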

Additional observations from a re-analysis of the deposited data

Results flagged for a closer look

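For 5 collagen genes the difference between a cloned and an induced line was not the same in the female pair (CRES-3 minus RiPS3) and the male pair (CRES-1 minus RiPS1), by limma's test of the difference between the differences. The values are on the log2 scale with Benjamini-Hochberg adjusted p over all genes tested. COL6A3 differed by 3.31 (SE 0.69, adjusted p = 0.0108): it was 0.46 in the female pair and -2.85 in the male pair, where RiPS1 was high on all 3 arrays. COL5A3 differed by 1.41 (SE 0.27, adjusted p = 0.00599), from 0.29 in the female pair to -1.12 in the male pair. COL9A3 differed by 1.13 (SE 0.26, adjusted p = 0.0182), from 0.21 to -0.92, and was no longer called without CRES-1 array A (0.90), CRES-3 array B or RiPS1 array A. COL2A1 differed by -1.17 (SE 0.24, adjusted p = 0.0108), from -0.62 in the female pair to 0.55 in the male pair, neither called by itself. COL4A6 differed by -1.13 (SE 0.27, adjusted p = 0.0227), from -0.39 to 0.74; the call was lost without any of 6 arrays in turn (adjusted p from 0.0506 to 0.0673) and with only the arrays of these lines fitted (0.0517).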

How the results depend on the processing

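Of 131 called results for single genes, none changed with a variance trend or a stricter filter. Without a filter 1 lost its call, with centring 2 and with only the arrays compared 2. Dropping the fold limit cannot remove a call, so it does not test these results. Leaving out 1 array at a time kept 1101 and lost 39. The mean of all probe sets kept 105, lost 24 and reversed 2, both COL5A2: -2.13 in ORMES23 and -2.10 in RiPS2 against the fibroblasts, from probe sets that disagree. That mean also left 1 call in CRES-3 and 2 in RiPS1 against ORMES23. COL18A1 (0.87) and COL9A1 (0.64) then lost their calls against the fibroblasts. Without a fold limit the counts were 19 in CRES-1 against the fibroblasts, 1 in RiPS2 against ORMES23, 4 in CRES-1 against RiPS1 and 11 in the F test. The share of all genes called without that limit is not given here, so nothing is read from these counts. With arrays left out, counts ran from 6 to 8 higher and 8 to 9 lower in the mean comparison, 16 to 17 in ORMES23, 11 to 14 in CRES-1, 17 to 17 in CRES-3, 15 to 16 in RiPS1, 14 to 16 in RiPS2 and 16 to 17 in RiPS3 against the fibroblasts. Against ORMES23 they ran from 1 to 4 in CRES-3, 2 to 4 in RiPS1, 0 to 1 in RiPS3 and stayed 0 in CRES-1 and RiPS2. They ran from 2 to 3 for CRES-1 against RiPS1, 3 to 6 for the difference between pairs and 7 to 9 in the F test, and stayed 0 for CRES-3 against RiPS3.

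The replicate block, with the letter A, B or C as a covariate, moved 1 count, from 16 to 17 in RiPS3 against the fibroblasts. The others stayed, with 7 higher and 9 lower in the mean comparison and 5 for the difference between pairs. Over 63 same-letter pairs of arrays the correlations of deviations ran from -0.414 to 0.437, and 20 were over 0.1. Of 21 arrays, 5 correlated best with their own letter. These values were not set against a level for unpaired arrays, so pairing by letter was not tested. Centring shifted the median of all genes by at most 0.072. Values under log2 5 lie near background, which limits COL4A5, COL4A6, COL8A2 and COL14A1 to lower bounds and leaves COL10A1 without a fold.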
